A study of Xenopus laevis with 16 samples.

Results

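The day change difference between stages is a single contrast over the whole series: the change in signal from 1 to 5 days after hindlimb amputation in stage 53 tadpoles of Xenopus laevis, less the same change in stage 57 tadpoles. It uses 16 of 16 arrays, 4 in each of 4 groups chosen by the array titles, and 11618 of 15491 probe sets that passed a filter on low signal. The hindlimb was cut through the middle of the zeugopodium, the lower leg, on one or both sides. Tissue 1 mm proximal to the cut was collected, and its RNA was assayed on Affymetrix arrays. The groups are tadpoles of stage 53 and of stage 57, each sampled 1 day and 5 days after amputation. The labels name no strain, genotype, sex or age in days, and every group had been amputated, so the contrast holds no uninjured limb. The design text calls stage 53 limbs regeneration competent and stage 57 limbs non-competent, and it does not say whether arrays came from separate animals or from pools. The p-values below weigh each difference against how far arrays of the same group spread, pooled over the 4 groups. That spread may therefore be technical.

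Below, values are log2 of the deposited signal unless a fold is stated, and a difference in day change is the stage 53 change minus the stage 57 change. A negative difference means that signal went down more, or up less, from 1 to 5 days at stage 53 than at stage 57. Called means an adjusted p below 0.05 by limma with Benjamini-Hochberg adjustment over all 11618 probe sets. The ending .L or .S of a symbol marks its copy on the long or the short subgenome of Xenopus laevis. The values for each group are given in order of replicate number, which only names the arrays.

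As background, a cut limb first closes its wound with migrating epidermis while stress and cytokine genes are switched on and leukocytes enter. Matrix metalloproteinases, enzymes that cut collagen and other matrix proteins, then loosen the stump tissue. In a limb that regenerates, a wound epidermis and a mass of dividing mesenchyme called the blastema form, and genes that pattern the embryonic limb bud, such as those of the FGF, BMP and hedgehog pathways, are used again. Xenopus tadpoles lose this capacity in the hindlimb as metamorphosis proceeds.

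Array quality touches the contrast through stage 57. The log2 ratio of the 3 prime to the 5 prime actin control, a sign of RNA or cDNA length, ran from 0.01 to 0.70 at stage 53 at 1 day and from 0.20 to 1.25 at 5 days. At stage 57 it ran from 0.04 to 4.76 at 1 day and from 0.30 to 5.72 at 5 days. Replicates 2 and 3 of stage 57 at 1 day and replicate 2 of stage 57 at 5 days were the 3 high arrays, and results are also given without them. Replicate 4 of stage 57 at 5 days, at 2.38, lay above every stage 53 array and was kept in those results. The same ratio for the GAPDH control ran from 3.63 to 5.22 at stage 53 and from 3.73 to 7.33 at stage 57. Correlations between arrays of a group were 0.914 to 0.955 at stage 53, 0.767 to 0.935 at stage 57 at 1 day and 0.842 to 0.947 at stage 57 at 5 days. The hindlimb gene pitx1.L had group means of 10.97, 11.52, 10.41 and 10.39 in the order stage 53 at 1 and 5 days, then stage 57 at 1 and 5 days, while the other hindlimb gene, tbx4.L, was dim at 6.58, 6.97, 6.60 and 6.36.

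The difference in day change was called for 3 probe sets, or 0.0258% of those tested, and all 3 were lower: krt17.S, socs3.L and mmp13l.L. By limma no probe set was called higher. At an unadjusted p below 0.05 there were 461 probe sets (3.97%), 214 higher (1.84%) and 247 lower (2.13%). The day change within stage 53 was called for 14 probe sets (0.121%), of which 4 (0.0344%) rose and 10 (0.0861%) fell from 1 to 5 days. That count moved with the arrays used: it was 371 without the 3 high-ratio arrays, 92 without replicate 3 of stage 57 at 1 day alone, 5 without replicate 4 of stage 53 at 5 days, and 828 with array weights. The model pooled the variance of a probe set over all groups, so stage 57 arrays enter the stage 53 p-values, and the reverse. The counts for the stages therefore do not judge each stage on its own replicates alone. Within stage 57 limma called none (0.0%), and 237 (2.04%) had an unadjusted p below 0.05, 131 higher (1.13%) and 106 lower (0.912%). Within stage 53 these were 1111 (9.56%), 584 higher (5.03%) and 527 lower (4.54%). All 3 probe sets called for the difference were among the 14 called within stage 53, which also held gadd45g.S, gadd45g.L, mmp1.S, dynll1.S, pltp.S, aif1l.L, sln35-A and 4 probe sets left unnamed.

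Much of the spread in the contrast lay on the stage 53 side. Over all probe sets the SD of the day change was 0.52 at stage 53 and 0.41 at stage 57. Among the 461, the stage 53 change was the larger in size for 392 (85.0%), against 6507 of 11618 (56.0%) overall. The 2 changes had opposite signs for 374 of the 461 (81.1%), against 5060 (43.6%) overall. Opposite signs and a large stage 53 change both enlarge the difference by construction, so these shares describe the 461 and test nothing. Precision was limited by 4 arrays a group: the median standard error of a difference was 0.52 and the median 95% interval reached 1.1 to either side.

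**Figure D1:**
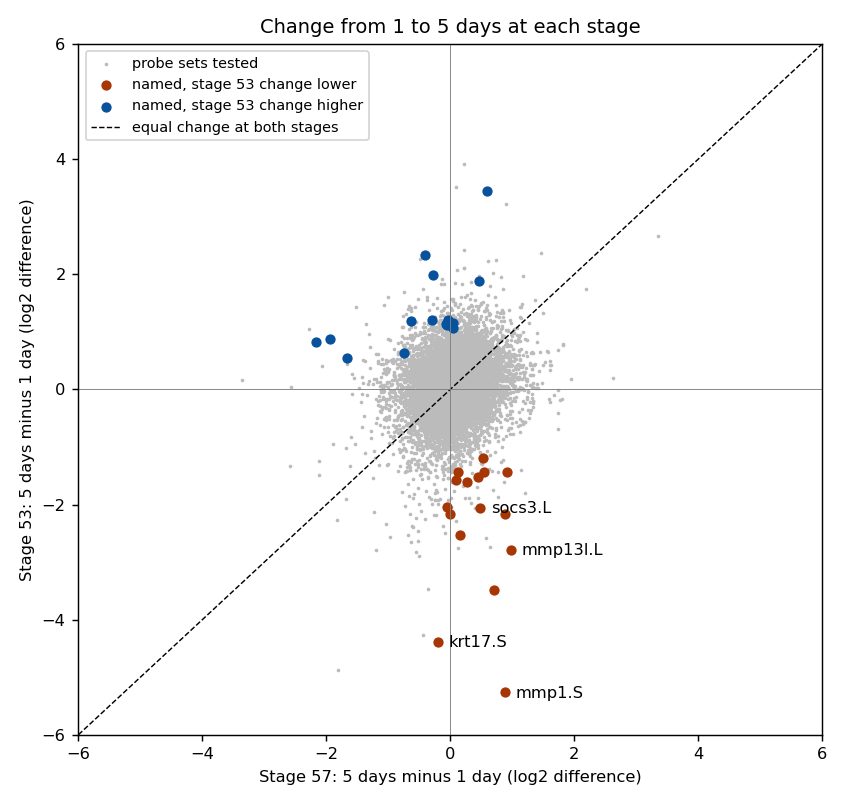
Change from 1 to 5 days at stage 57 (x axis) and at stage 53 (y axis) in log2 units, 1 point for each of 11618 probe sets, with the 31 named probe sets in colour and the dashed line at equal change. The krt17.S, socs3.L, mmp13l.L and mmp1.S points lie far below the line with stage 53 changes between -2.06 and -5.26 and stage 57 changes between -0.20 and 0.98.

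Krt17.S, a type I keratin that mammalian epidermis makes in wounds, had the smallest p. The signal of krt17.S was 14.49, 13.81, 13.67 and 13.89 (mean 13.97, SD 0.36) at stage 53 at 1 day and 10.82, 10.05, 9.03 and 8.44 (mean 9.59, SD 1.06) at 5 days. At stage 57 it was 14.64, 14.82, 13.56 and 14.19 (mean 14.3, SD 0.56) at 1 day and 14.31, 14.5, 14.17 and 13.42 (mean 14.1, SD 0.47) at 5 days. The stage 53 arrays at 5 days were the only low ones: all 4 lay below every array of the other 3 groups, which overlapped one another. Signal fell 20.8-fold from 1 to 5 days at stage 53 (log2 change -4.38, SE 0.43, adjusted p = 0.000167 by limma), while the stage 57 change was -0.20 with a 95% interval of -1.12 to 0.71. The difference in day change was -4.18 (SE 0.61, 95% interval -5.47 to -2.89, adjusted p = 0.0363 by limma). Without the 3 high-ratio arrays it was -3.93 and no longer called (adjusted p = 0.0858 by limma). In bulk tissue, fewer epidermal cells and less of this RNA per cell cannot be told apart.

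Markers of epidermis did not move together as krt17.S did. Of 33 epidermal gene copies measured, 22 had a negative difference in day change and 11 a positive one, with a median of -0.24. Without the 3 arrays it was 0.11, over the 32 copies that passed the filter then. At an unadjusted p below 0.05, 2 were lower and 1 higher (2.13% and 1.84% of all probe sets were), and krt17.S was the only one called. The summed signal of these markers includes krt17.S, so the fall of krt17.S enters the sum. At stage 53 the sum ran from 166477 to 232452 at 1 day and from 120036 to 167018 at 5 days. At stage 57 it ran from 162930 to 216673 at 1 day and from 122439 to 206473 at 5 days. No sum was at 0, and the part of these markers in the krt17.S result was not tested. The larval skin keratin krt12.5.S, at 13.53 to 14.15 in the 4 group means, had a difference of 0.29 (95% interval -0.33 to 0.92). Krt18.1.L, a simple epithelial keratin, was at -1.72 (unadjusted p of 0.0496), or -0.85 (unadjusted p of 0.0559) with 101.8 signal units added before the log, and its S copy at 0.34. All 3 probe sets of krt70.S had positive values.

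Socs3.L encodes a feedback inhibitor of cytokine signalling through JAK and STAT proteins. Socs3.L gave 11.95, 11.36, 12.11 and 11.91 (mean 11.83, SD 0.33) on the stage 53 arrays at 1 day and 10.27, 10.38, 9.34 and 9.1 (mean 9.77, SD 0.65) at 5 days. The stage 57 values were 11.1, 11.45, 11.08 and 11.16 (mean 11.2, SD 0.17) at 1 day and 11.68, 12.04, 11.42 and 11.56 (mean 11.67, SD 0.27) at 5 days. At stage 53 the days did not overlap, and the 5-day arrays lay below all 12 others. At stage 57 the days overlapped, with the 5-day mean the higher. Signal fell 4.17-fold at stage 53 (log2 change -2.06, SE 0.29, adjusted p = 0.00579 by limma) and the stage 57 change was 0.48 (95% interval -0.15 to 1.1). The difference was -2.54 (SE 0.42, 95% interval -3.42 to -1.66, adjusted p = 0.0483 by limma), and -2.49 without the 3 arrays (adjusted p = 0.110 by limma).

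Mmp13l.L encodes a collagenase-3-like metalloproteinase. It lay outside the brightness limit of the rule for named genes and is named after its values were seen, as 1 of the 3 called. For mmp13l.L the stage 53 arrays read 6.99, 8.59, 7.72 and 7.09 (mean 7.6, SD 0.74) at 1 day and 4.41, 4.87, 5.45 and 4.49 (mean 4.81, SD 0.47) at 5 days. Those of stage 57 read 7.92, 8.14, 7.65 and 6.8 (mean 7.63, SD 0.59) at 1 day and 8.94, 7.94, 9.18 and 8.39 (mean 8.61, SD 0.56) at 5 days. The stage 53 arrays at 5 days were again the lowest 4, without overlap, and all lay below 6.67, the 25th percentile of all deposited values. The difference was -3.77 (SE 0.61, 95% interval -5.06 to -2.49, adjusted p = 0.0483 by limma), made of a 6.92-fold fall at stage 53 (log2 change -2.79) and a stage 57 change of 0.98 (95% interval 0.08 to 1.89, not called). At such low signal the size depends on the scale: with 101.8 signal units added before the log it was -1.92 (adjusted p = 0.165 by limma). Without the 3 arrays it was -4.26 (adjusted p = 0.0858 by limma).

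Each of these calls sat near the threshold. Across the alternatives run, krt17.S was called in 13 of 26, mmp13l.L in 6 of 25 and socs3.L in 5 of 26. Their differences stayed between -4.59 and -3.80, between -4.26 and -1.92, and between -2.74 and -2.31. Leaving out any 1 of the 16 arrays left 0 to 2 calls, and krt17.S alone was called both without replicate 1 of stage 53 at 5 days and without replicate 4 of stage 57 at 5 days. Krt17.S and socs3.L were called without replicate 2 of stage 53 at 5 days, and krt17.S and mmp13l.L without replicate 2 of stage 57 at 5 days. Leaving out any 1 of the other 12 arrays ended every call, though the sign of each difference held.

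**Figure D2:**
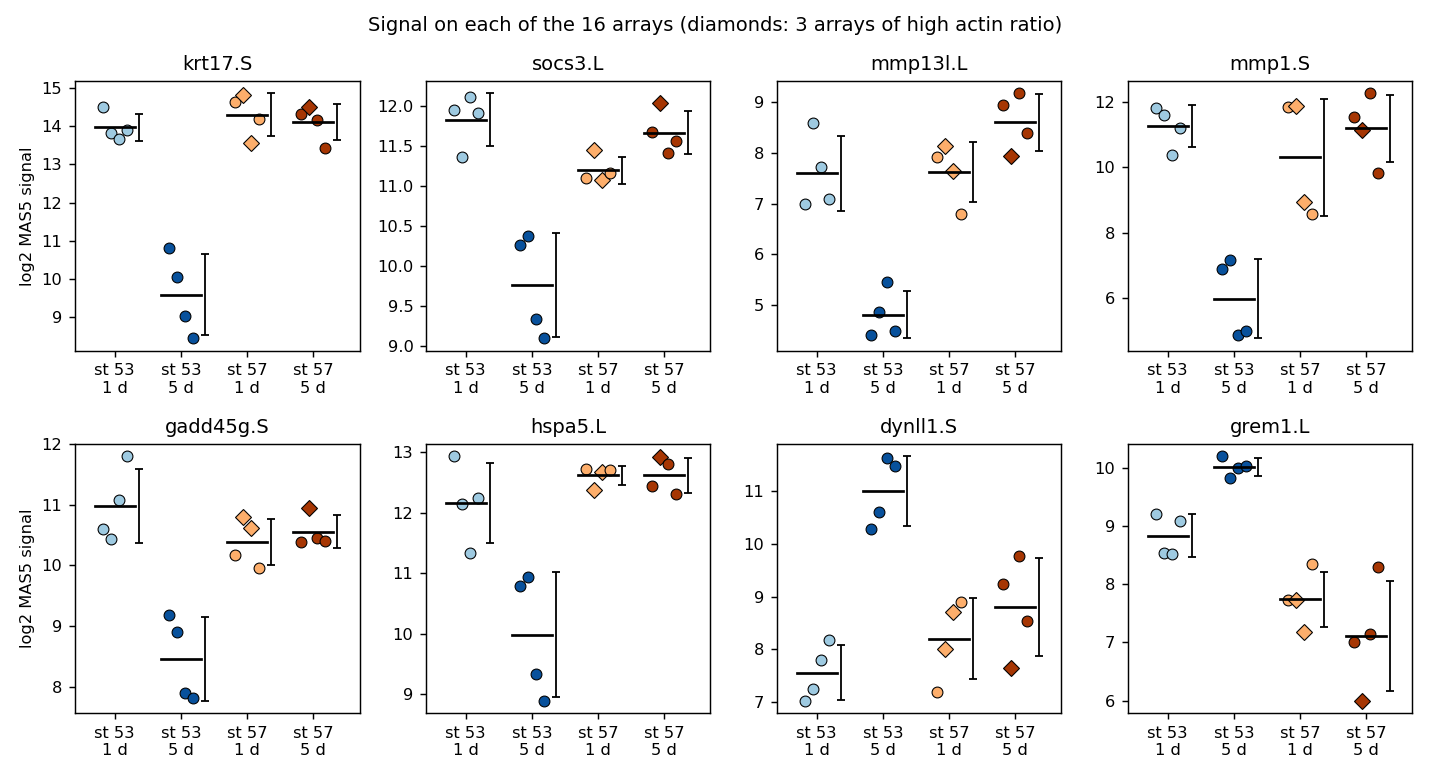
Log2 signal on each of the 16 arrays for 8 genes, grouped by stage and day, with lines at group means, bars for the SD and diamonds for the 3 stage 57 arrays of high actin ratio. In the 6 genes of lower difference the stage 53 arrays at 5 days lie below the other groups, and in dynll1.S and grem1.L they lie above them.

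Several metalloproteinases beside mmp13l.L had large values without passing the test. Stage 53 arrays gave mmp1.S values of 11.82, 11.61, 10.38 and 11.19 (mean 11.25, SD 0.64) at 1 day and 6.9, 7.16, 4.89 and 5.0 (mean 5.99, SD 1.21) at 5 days. Stage 57 arrays gave 11.85, 11.88, 8.95 and 8.59 (mean 10.31, SD 1.79) at 1 day and 11.54, 11.15, 12.26 and 9.83 (mean 11.19, SD 1.02) at 5 days. Mmp1.S encodes an interstitial collagenase. Its stage 53 arrays at 5 days lay below all others, and the stage 57 arrays at 1 day were split between a high and a low pair. Mmp1.S fell 38.4-fold at stage 53 (log2 change -5.26, SE 0.76, adjusted p = 0.00579 by limma). With a stage 57 change of 0.88, its difference was -6.14 (SE 1.07, 95% interval -8.40 to -3.88, adjusted p = 0.0741 by limma). The mean of the stage 53 arrays at 5 days, 5.99, lay below the 25th percentile of 6.67, so these sizes depend on the scale too: with 101.8 signal units added before the log the difference was -4.64 (adjusted p = 0.149 by limma). It was called in 1 of 26 alternatives, that with array weights, which also called mmp11.L, gadd45g.S, tnc.L and 3 fn1.S probe sets.

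Mmp13l.S stood at 12.24, 11.98, 10.8 and 11.04 (mean 11.51, SD 0.7) at 1 day and 9.41, 9.63, 6.99 and 6.07 (mean 8.02, SD 1.77) at 5 days in stage 53 limbs. In stage 57 limbs it stood at 10.69, 12.47, 10.73 and 10.3 (mean 11.05, SD 0.97) at 1 day and 11.97, 12.19, 12.18 and 10.67 (mean 11.75, SD 0.73) at 5 days. This is the S copy of the collagenase-3-like gene. Its stage 53 days did not overlap, its stage 57 days did, and its difference was -4.19 (SE 0.98, adjusted p = 0.609 by limma). At stage 53, mmp11.L measured 10.54, 10.2, 10.33 and 10.34 (mean 10.35, SD 0.14) at 1 day and 9.04, 8.49, 7.25 and 7.93 (mean 8.18, SD 0.77) at 5 days. Its stage 57 arrays gave 8.2, 8.89, 8.69 and 10.67 (mean 9.11, SD 1.08) at 1 day and 10.38, 8.73, 10.39 and 10.51 (SD 0.85) at 5 days. Mmp11.L, stromelysin-3, is a thyroid hormone response gene in Xenopus metamorphosis. At stage 53 the 4 arrays at 1 day were close together and above all 4 at 5 days, while replicate 2 of stage 57 at 5 days lay at 8.73, away from the other 3 of its group. The mmp11.L difference was -3.07 (SE 0.71, adjusted p = 0.609 by limma), with -2.17 at stage 53 and 0.89 at stage 57.

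Over the list of proteases and matrix turnover genes, 20 of 26 measured copies were negative, with a median of -0.52 against 0.04 over all probe sets. Lower at an unadjusted p below 0.05 were 4, against 2.13% of all probe sets: mmp1.S, mmp11.L, mmp13l.S and plat.L, which encodes tissue plasminogen activator and was at -1.34. The list's mmp13 matched mmp13l.S by a synonym that RefSeq gives to that copy and not to mmp13l.L, so these counts leave out the called mmp13l.L. Mmp3.L, a stromelysin, went the other way at 2.61 (unadjusted p of 0.0138), from a stage 53 change of 1.60 and a stage 57 change of -1.01. Mmp9.1.S, a gelatinase made by leukocytes, was at -0.97 and the membrane-bound mmp14.L at -1.1, both with unadjusted p-values of 0.111 or more. Without the 3 arrays the list's median was -0.41.

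With all arrays, early injury genes were the list with the most negative median, -0.96 over 34 copies, 30 of them negative. Without the 3 arrays their median was -0.69, and the cartilage list had the most negative, -1.04 over 8 copies. With all arrays the cartilage median was -0.46, with 7 copies negative and 1 positive. The median day change of the early injury list was -0.60 at stage 53 and 0.13 at stage 57. Lower at an unadjusted p below 0.05 were 8, and none was higher: socs3.L, which was called, mmp1.S, jun.L, c3.L, cebpb.L, junb.L, hmox1.S and ptgs2.S. Over all probe sets, 2.13% were lower by the same threshold. Without the 3 arrays 9 of the early injury copies were lower and 1 higher (3.42% and 3.2% of all probe sets). The lists were chosen with earlier results of these data known, so their medians are descriptions.

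Jun.L encodes a subunit of the AP-1 transcription factor. The signal of jun.L was 11.22, 11.4, 11.67 and 11.41 (mean 11.43, SD 0.18) at stage 53 at 1 day and 10.41, 9.49, 9.39 and 10.3 (mean 9.9, SD 0.53) at 5 days. At stage 57 it was 9.98, 10.46, 8.99 and 10.33 (mean 9.94, SD 0.66) at 1 day and 11.01, 9.47, 10.01 and 11.03 (mean 10.38, SD 0.77) at 5 days. At stage 53 all 4 arrays at 1 day lay above all 4 at 5 days, and at stage 57 the days overlapped. Its difference was -1.97 (SE 0.55, adjusted p = 0.714 by limma). Its partner junb.L was at -1.90, with a stage 53 change of -1.89 and a stage 57 change of 0.00. Cebpb.L, a transcription factor of the acute phase and of myeloid cells, was at -1.94. The haem oxygenase gene hmox1.S was at -2.43, and ptgs2.S, the inducible prostaglandin synthase, at -1.64.

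C3.L, the central complement component, reached its difference by another route. C3.L gave 10.03, 9.8, 10.49 and 10.87 (mean 10.3, SD 0.48) on the stage 53 arrays at 1 day and 9.95, 9.38, 10.7 and 10.3 (mean 10.08, SD 0.56) at 5 days. The stage 57 values were 7.07, 7.35, 6.44 and 8.08 (mean 7.23, SD 0.68) at 1 day and 8.36, 8.43, 8.96 and 8.34 (mean 8.52, SD 0.3) at 5 days. All stage 53 arrays lay above all stage 57 arrays, and the stage 57 arrays at 5 days lay above those at 1 day. Its difference of -1.51 (SE 0.51, unadjusted p of 0.00847) came from a stage 57 change of 1.29 (95% interval 0.54 to 2.05, not called) beside a stage 53 change of -0.22.

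Myeloid marker genes leaned the same way as the injury genes. Of 15 copies measured, 13 were negative, with a median of -0.66 (-0.36 without the 3 arrays), and none passed an unadjusted p of 0.05. Coro1a.S, a leukocyte actin regulator, was at -1.30, cyba.L, a subunit of the phagocyte oxidase, at -1.44, and mpo.S, myeloperoxidase of granulocytes, at -1.44. Without the 3 arrays coro1a.S was at -1.35, cyba.L at -0.71 and mpo.S at -0.68. The mpo.S value came mostly from a stage 57 change of 1.20, beside -0.24 at stage 53. Its means of 6.61 (stage 53 at 5 days) and 6.16 (stage 57 at 1 day) lay below the 25th percentile of 6.67. With 101.8 signal units added before the log mpo.S was at -0.67. The summed signal of the 15 ran from 33678 to 60228 at stage 53 at 1 day and from 29572 to 33559 at 5 days. At stage 57 it ran from 15583 to 45727 at 1 day and from 27611 to 36872 at 5 days. None was at 0, and their part in the injury gene values was not tested. Cd37.S, a tetraspanin of mammalian leukocytes that the marker list did not hold, was at -1.72 (SE 0.47, adjusted p = 0.713 by limma), and its L copy at -0.43.

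Gadd45g, a stress-inducible gene of the growth arrest and DNA damage family, had both copies among the named genes. For gadd45g.S the stage 53 arrays read 10.59, 10.44, 11.07 and 11.8 (mean 10.97, SD 0.61) at 1 day and 9.18, 8.9, 7.9 and 7.81 (mean 8.45, SD 0.69) at 5 days. Those of stage 57 read 10.17, 10.79, 10.61 and 9.96 (mean 10.38, SD 0.38) at 1 day and 10.38, 10.95, 10.45 and 10.4 (mean 10.55, SD 0.27) at 5 days. Stage 53 arrays gave gadd45g.L values of 10.09, 10.26, 10.09 and 10.83 (mean 10.32, SD 0.35) at 1 day and 8.93, 8.75, 7.78 and 7.66 (mean 8.28, SD 0.65) at 5 days. Stage 57 arrays gave 9.97, 10.88, 10.25 and 9.74 (mean 10.21, SD 0.49) at 1 day and 10.1, 10.79, 9.67 and 10.04 (mean 10.15, SD 0.47) at 5 days. In both copies the stage 53 arrays at 5 days lay below all 12 other arrays, which overlapped. Both fell at stage 53, gadd45g.S with a log2 change of -2.53 (adjusted p = 0.00579 by limma) and gadd45g.L with -2.04 (adjusted p = 0.0195 by limma). Their stage 57 changes were 0.16 and -0.06. The differences of -2.69 (SE 0.50, adjusted p = 0.127) and -1.98 (SE 0.49, adjusted p = 0.657), by limma, were not called, and gadd45g.S was called with array weights (adjusted p = 0.0187).

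The heat shock and protein folding list held several lower values from genes of the endoplasmic reticulum, where secreted and membrane proteins are made. Of its 68 copies, 13 were lower and 1 higher at an unadjusted p below 0.05, against 2.13% and 1.84% of all probe sets, and none was called. The 13 were the chaperones and lectins hspa5.L, hspa5.S, hsp90b1.L, calr.L, calr.S and canx.S, the disulphide isomerases p4hb.L and pdia4.L, the cochaperone dnajc3.L, the stress-induced creld2.L, creld2.S and manf.S, and the transcription factor xbp1.L. These belong to the endoplasmic reticulum or its stress response, a grouping seen in the values and not a list of its own, and how many of the 68 belong there was not counted. The one higher was hsf2.L, a heat shock transcription factor, at 0.81.

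Hspa5.L stood at 12.94, 12.14, 11.33 and 12.24 (mean 12.16, SD 0.66) at 1 day and 10.79, 10.94, 9.34 and 8.89 (mean 9.99, SD 1.03) at 5 days in stage 53 limbs. In stage 57 limbs it stood at 12.72, 12.38, 12.68 and 12.71 (mean 12.62, SD 0.16) at 1 day and 12.44, 12.93, 12.8 and 12.32 (mean 12.62, SD 0.29) at 5 days. Hspa5.L, known as BiP, binds unfolded proteins in the endoplasmic reticulum. The stage 53 arrays at 5 days lay below all others, and the other 3 groups overlapped. Its difference of -2.17 (SE 0.59, 95% interval -3.41 to -0.93, adjusted p = 0.713 by limma) was all on the stage 53 side, where the change was -2.17, with 0.00 at stage 57. The S copy was at -1.72. Creld2.L was at -1.56 and creld2.S at -1.52, manf.S at -2.27, hsp90b1.L at -1.55, dnajc3.L at -1.51, xbp1.L at -1.78, and calr.L and calr.S at -1.17 and -0.84. The smallest of the 13 were p4hb.L at -0.66, canx.S at -0.77 and pdia4.L at -0.92. Over the whole list the median was -0.36, with -0.42 at stage 53 and -0.19 at stage 57.

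**Figure D3:**
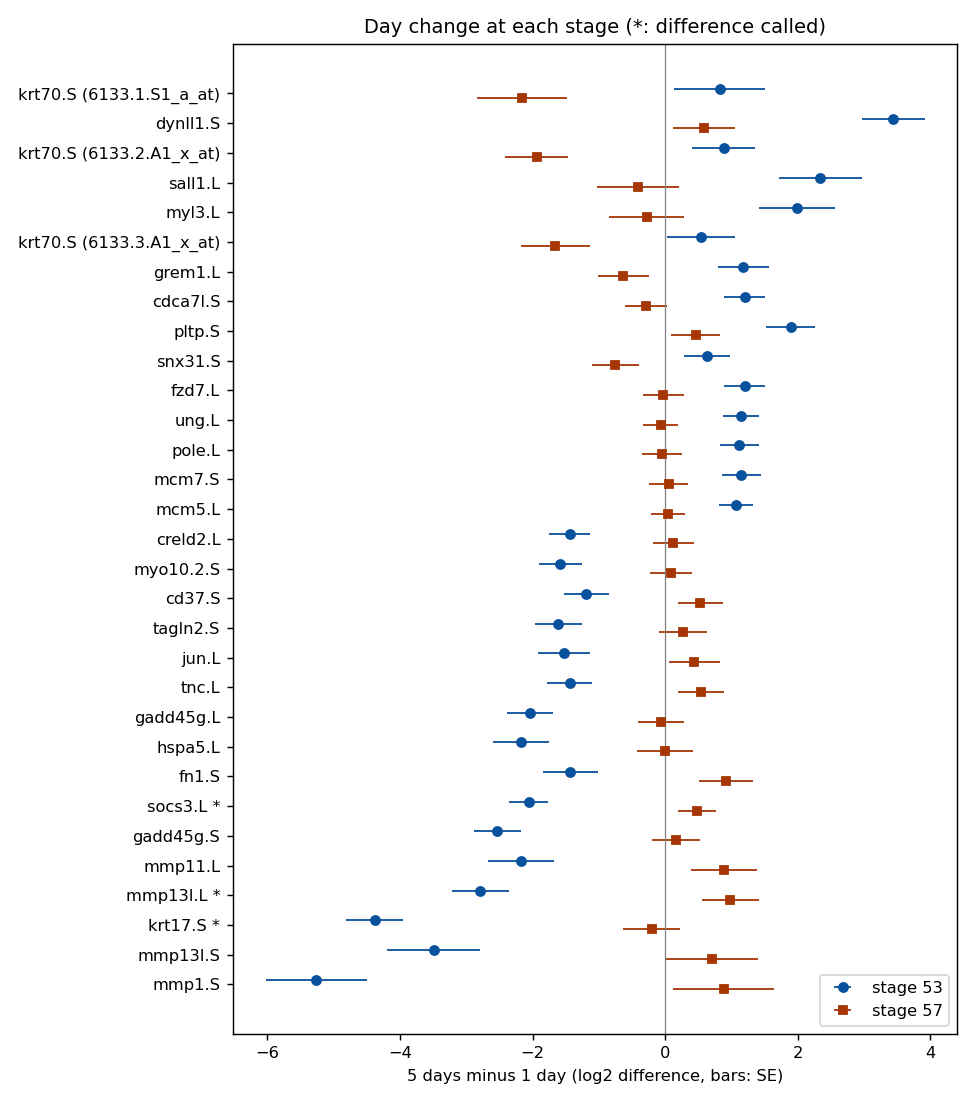
Log2 change from 1 to 5 days at stage 53 (circles) and stage 57 (squares) for the 31 named probe sets, with bars of 1 SE and stars on the 3 called for the difference. In the 16 lower ones the stage 53 change is negative, from -1.19 to -5.26, and the stage 57 change lies between -0.20 and 0.98.

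Matrix genes split. Of 31 copies in the fibrillar matrix and fibroblast list, 21 were negative, with a median of -0.38, and 3 were lower and 1 higher at an unadjusted p below 0.05 (2.13% and 1.84% of all probe sets). At stage 53, tnc.L measured 11.77, 11.55, 12.16 and 12.18 (mean 11.92, SD 0.31) at 1 day and 11.27, 10.36, 10.32 and 9.94 (mean 10.47, SD 0.56) at 5 days. Its stage 57 arrays gave 11.79, 12.69, 13.14 and 13.11 (mean 12.68, SD 0.63) at 1 day and 12.71, 13.02, 13.64 and 13.52 (mean 13.22, SD 0.43) at 5 days. Tnc.L encodes tenascin C, a matrix glycoprotein of injured and developing tissue. Its stage 53 arrays at 5 days lay below all others, and its difference was -1.98 (SE 0.49, adjusted p = 0.657 by limma), with -1.36 on a second tnc.L probe set. Fn1.S, fibronectin, was at -2.34 (SE 0.59, adjusted p = 0.657 by limma) on the named probe set and at -0.94, -1.05 and -1.54 on the 3 others, so the probe sets shared a sign and differed in size. Ccn2.L, connective tissue growth factor, was at -1.81.

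Collagen genes of the fixed set had values near 0. Col1a1.S, the chain of the main fibrillar collagen, had a difference of -0.12 (95% interval -0.93 to 0.68). Col2a1.S, of cartilage collagen, was at -0.13 with a wide interval of -2.05 to 1.78. Fbln1.L, the matrix glycoprotein fibulin 1, was the one higher, at 1.28 (unadjusted p of 0.0303). The signal of fbln1.L was 13.39, 13.85, 14.2 and 13.68 (mean 13.78, SD 0.34) at stage 53 at 1 day and 14.64, 15.11, 15.21 and 15.22 (mean 15.05, SD 0.27) at 5 days. At stage 57 it was 13.2, 12.52, 13.89 and 14.15 (mean 13.44, SD 0.73) at 1 day and 13.92, 12.27, 13.63 and 13.9 (mean 13.43, SD 0.78) at 5 days. At 5 days all stage 53 arrays of fbln1.L lay above all stage 57 arrays.

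Actin and motility genes were mostly negative: 41 of 50 copies, with a median of -0.36, 5 lower and none higher at an unadjusted p below 0.05. Over all probe sets 5420 of 11618 were negative, 2.13% lower and 1.84% higher at that p. Tagln2.S, an actin-binding transgelin, was at -1.88 (SE 0.51, adjusted p = 0.713 by limma). Cnn2.S, a calponin, was at -1.35, flnc.L, a filamin that crosslinks actin, at -1.28, s100a10.L at -1.39 and the nonmuscle myosin heavy chain myh9.L at -1.37. Myo10.2.S, a myosin of filopodia, was named by its p and not by the list, at -1.67 (SE 0.46, adjusted p = 0.713 by limma). Glycolysis genes had 4 of 33 lower and none higher at that threshold (2.13% and 1.84% of all probe sets), with a median of -0.24: pgk1 at -1.1, pkm.S at -1.29, pgam1.L at -1.03 and ldhb.L at -1.03. The 4 encode enzymes of the lower part of the glycolytic pathway, including the lactate step. Of the other copies, pgam1.S was at -0.88, pkm.L at -0.34 and ldhb.S at 0.06.

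In the higher direction no probe set was called. Dynll1.S gave 7.02, 7.25, 7.8 and 8.17 (mean 7.56, SD 0.52) on the stage 53 arrays at 1 day and 10.27, 10.6, 11.63 and 11.48 (SD 0.66) at 5 days. The stage 57 values were 7.2, 8.01, 8.7 and 8.9 (mean 8.2, SD 0.77) at 1 day and 9.24, 7.64, 9.77 and 8.54 (mean 8.8, SD 0.92) at 5 days. Dynll1.S encodes a dynein light chain. Its stage 53 arrays at 5 days lay above all others, and the other 3 groups overlapped. It rose 10.8-fold at stage 53 (log2 change 3.44, SE 0.47, adjusted p = 0.00579 by limma), and the difference was 2.85 (SE 0.67, adjusted p = 0.609 by limma; 2.31 without the 3 arrays). The value rests on this probe set: a second dynll1.S probe set was at -0.25 and dynll1.L at 0.19. Pltp.S, a phospholipid transfer protein, was at 1.43 on the named probe set and at 2.20 on a second one, whose stage 53 rise of 2.42 was called (adjusted p = 0.0155 by limma).

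For krt70.S, as for snx31.S, the stage 57 change was the larger part of the difference. Its 3 probe sets gave differences of 2.82, 2.97 and 2.20. For krt70.S the stage 53 arrays read 9.5, 9.31, 9.96 and 10.22 (mean 9.75, SD 0.42) at 1 day and 10.09, 10.7, 9.8 and 11.91 (mean 10.62, SD 0.94) at 5 days. Those of stage 57 read 11.72, 12.59, 12.44 and 11.58 (mean 12.08, SD 0.51) at 1 day and 10.22, 11.38, 10.02 and 8.95 (mean 10.14, SD 0.99) at 5 days. On this probe set, that of the smallest p, the stage 57 arrays at 5 days lay below all those at 1 day, and the stage 53 days overlapped. The stage 57 change of -1.94 (95% interval -2.96 to -0.91, not called) was larger in size than the stage 53 change of 0.88. Krt70.S and krt17.S are both keratins of the epidermis list and had differences of opposite sign.

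With all arrays, limb patterning genes had the highest median of the lists, 0.64 over 47 copies, 38 of them positive. Without the 3 arrays their median was 0.48, below those of the ionocyte (0.62), erythroid (0.53) and FGF (0.51) lists. At an unadjusted limma p below 0.05, 8 limb patterning copies were then higher and 2 lower (3.2% and 3.42% of all probe sets). With all arrays, 6 were higher and none lower at that p, against 1.84% higher over all probe sets: grem1.L, fgf8.L, sall1.L, hhip.L, dlx2.S and meis2.L. Their median change with all arrays was 0.53 at stage 53 and -0.06 at stage 57. None was called.

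Stage 53 arrays gave grem1.L values of 9.21, 8.53, 8.51 and 9.09 (mean 8.83, SD 0.37) at 1 day and 10.2, 9.82, 9.99 and 10.03 (mean 10.01, SD 0.15) at 5 days. Stage 57 arrays gave 7.72, 7.72, 7.18 and 8.35 (mean 7.74, SD 0.47) at 1 day and 7.0, 5.99, 7.15 and 8.29 (mean 7.11, SD 0.94) at 5 days. Grem1.L encodes a secreted BMP antagonist that keeps limb bud signalling going. All stage 53 arrays at 5 days lay above all at 1 day, and every stage 53 array lay above every stage 57 array. The difference was 1.81 (SE 0.54, 95% interval 0.67 to 2.96, adjusted p = 0.892 by limma), from changes of 1.18 at stage 53 and -0.63 at stage 57. Fgf8.L stood at 6.07, 6.79, 7.11 and 6.92 (mean 6.72, SD 0.45) at 1 day and 8.19, 8.12, 8.57 and 8.25 (mean 8.28, SD 0.2) at 5 days in stage 53 limbs. In stage 57 limbs it stood at 5.84, 6.42, 7.99 and 6.32 (mean 6.64, SD 0.93) at 1 day and 5.25, 6.53, 5.74 and 6.97 (mean 6.12, SD 0.77) at 5 days. Fgf8.L is a ligand of the apical ectoderm of the limb bud, and its 4 stage 53 arrays at 5 days lay above all 12 others. Its difference was 2.08 (SE 0.66, unadjusted p of 0.00589). Sall1.L, a zinc finger transcription factor, was at 2.75 (SE 0.88) with 2.34 at stage 53 and -0.41 at stage 57.

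Hhip.L, a membrane protein that binds and restrains hedgehog ligands, was at 1.25 on the probe set that stood for it in the list and at 1.85 on a second one. The Distal-less homeobox gene dlx2.S was at 1.5. Meis2.L, a homeobox gene of proximal limb in chick and mouse, was at 1.32, with -1.01 at stage 57 and 0.31 at stage 53. In the FGF list, with a median of 0.55 over 12 copies, fgf8.L and spry2.S were higher at an unadjusted p below 0.05 (1.84% of all probe sets were). At stage 53, spry2.S measured 7.69, 7.68, 7.74 and 7.71 (mean 7.71, SD 0.03) at 1 day and 8.64, 9.01, 8.93 and 9.08 (mean 8.92, SD 0.2) at 5 days. Its stage 57 arrays gave 7.59, 7.26, 7.81 and 7.71 (mean 7.59, SD 0.24) at 1 day and 8.01, 8.14, 7.19 and 7.47 (mean 7.7, SD 0.45) at 5 days. Spry2.S is a feedback inhibitor of FGF signalling, and its stage 53 arrays at 5 days lay above all others. Its difference was 1.1 (SE 0.36, unadjusted p of 0.00757), and 1.30 without the 3 arrays.

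Other limb regulators of the fixed set were measured with intervals that included 0. Msx1.L, a homeobox gene of blastema mesenchyme, was at 0.65 (95% interval -0.44 to 1.74). Msx2.L was at 1.20 with all arrays and at -0.17 without the 3, so its sign rests on them. Hand2.S, a posterior limb factor, was at 0.03 (95% interval -1.30 to 1.35) and hand2.L at 0.45. Sall3.L was at 1.04, hoxa11.S at 0.51, hoxd13.S at 1.14 and lhx2.L, a LIM homeobox gene of the limb bud, at 2.12 (95% interval -0.06 to 4.29). In lhx2.L replicate 3 of stage 57 at 5 days lay at 2.56, while the other 3 lay at 6.1 to 6.38. A second lhx2.L probe set had a difference of 0.00, with a change of 0.46 at both stages. No kept probe set stood for fgf10, shh, hoxa13 or klf9.

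Mycn, a growth-promoting transcription factor of limb bud mesenchyme, gave the same sign in both copies. At stage 53, mycn.S measured 9.98, 9.65, 10.74 and 10.42 at 1 day and between 11.85 and 12.14 at 5 days. At stage 57 it ran from 6.0 to 9.06 at 1 day and from 7.77 to 9.04 at 5 days. Every stage 53 array at 5 days lay above every one at 1 day, both lay above all stage 57 arrays, and the lowest of all, at 6.0, was replicate 3 of stage 57 at 1 day. Mycn.S was at 1.15 (95% interval -0.37 to 2.68) with all arrays and at 1.89 without the 3 high-ratio arrays, which include that one (adjusted p = 0.139 by limma). Mycn.L was at 0.76 and 0.67. The thyroid hormone genes dio3.L and thra.L were not called. Dio3.L, the deiodinase that inactivates the hormone, was at -1.81 (95% interval -3.78 to 0.16), and the receptor gene thra.L at -0.08. No probe set stood for the receptor gene thrb. The stage 53 means of dio3.L, 5.47 at 1 day and 4.38 at 5 days, lay below the 25th percentile of 6.67. Its size therefore depends on the scale: with 31.3 and 101.8 signal units added before the log it was -1.20 and -0.92. Without the 3 high-ratio arrays dio3.L was at -2.47.

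The WNT list had a median of 0.12 over 35 copies, with 1 higher and 1 lower at an unadjusted p below 0.05 (1.84% and 2.13% of all probe sets were). Fzd7.L was at 1.23 and, on a second probe set, at 0.78. Fzd10.S was at 1.29 (unadjusted p of 0.00536). Ctnnb1.L, beta-catenin, the intracellular carrier of the signal, was at -0.78. In the hedgehog and retinoic acid list, hhip.L was higher, and both copies of rdh10, an enzyme of retinoic acid synthesis, were lower, at -1.80 (rdh10.S) and -1.05 (rdh10.L), each at an unadjusted p below 0.05 and not called.

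Cell cycle and DNA replication genes leaned higher over a broad list. Of 123 copies, 108 were positive, with a median of 0.45 (0.40 without the 3 arrays). Higher at an unadjusted p below 0.05 were 8 (1.84% of all probe sets were), and none was lower. The median change was 0.64 at stage 53, where 39 copies were higher at an unadjusted p below 0.05 (5.03% of all probe sets were), and 0.14 at stage 57, where 1 was (1.13% of all). The 8 were mcm2.L, mcm5.L and mcm7.S, which belong to the replicative helicase, gins1.S of the same complex at the fork, pole.L, a DNA polymerase, lig1.L, a DNA ligase, cdc6.S, a loader of the helicase, and espl1.S, the separase of mitosis. Their differences lay between 0.85 and 1.43.

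Mcm7.S measured 8.3, 9.64, 8.78 and 9.17 at stage 53 at 1 day and 10.43, 9.92, 9.93 and 10.21 at 5 days. Its stage 57 arrays ran from 9.38 to 10.13 at 1 day and from 9.6 upward at 5 days, with a mean of 9.79. At stage 53 the days of mcm7.S did not overlap, and the stage 57 arrays of both days lay between the highest and lowest stage 53 arrays. Its difference was 1.1 (SE 0.40, unadjusted p of 0.0144), with 1.15 at stage 53 and 0.05 at stage 57. Its L copy was at 0.74. Ung.L, uracil-DNA glycosylase of DNA repair, was at 1.22 (SE 0.39) and cdca7l.S, a cell-division-associated nuclear protein, at 1.49 (SE 0.44), both named by their p. Snx31.S, a sorting nexin, was at 1.37 (SE 0.50), with 0.63 at stage 53 and -0.75 at stage 57.

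**Figure D4:**
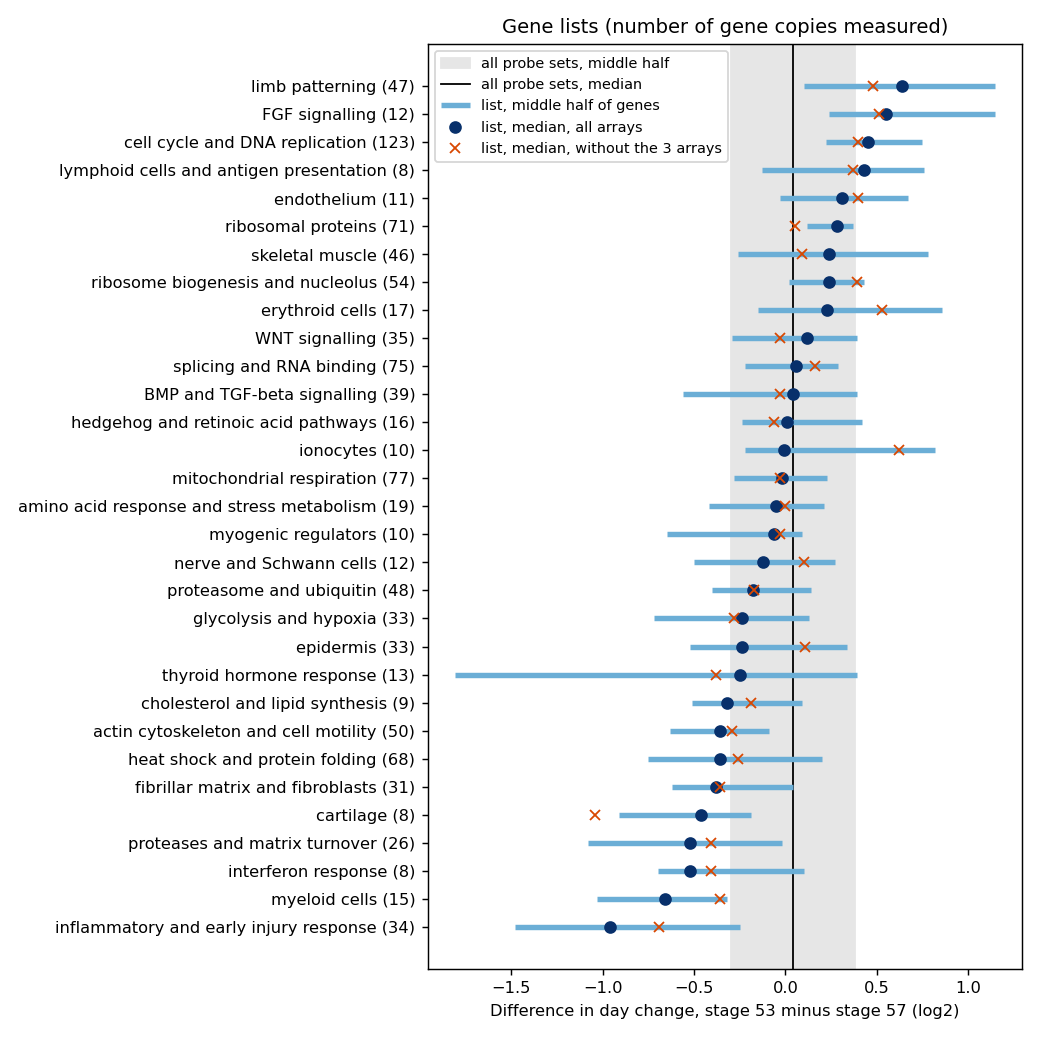
Median difference in day change (points), middle 50% of gene copies (bars) and median without the 3 stage 57 arrays (crosses) for each list with 8 or more copies, beside all probe sets (line and band), in log2 units. The medians run from -0.96 for early injury genes to 0.64 for limb patterning genes, and the crosses of ribosomal protein genes and epidermal genes lie nearer to 0 and across 0.

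Muscle genes had a median of 0.24 over 46 copies, 29 of them positive. Without the 3 arrays the low-signal filter, applied again, kept 41 of these copies, and their median was 0.09. Myl3.L, a myosin light chain, was at 2.27 (unadjusted p of 0.0117), or 1.22 with 101.8 signal units added before the log, and its S copy at 0.51. Ckm.L, muscle creatine kinase, was at -1.22 (unadjusted p of 0.0243). Acta1.S, skeletal actin, was at -1.21 with an interval of -3.64 to 1.22. Ribosomal protein genes had a median of 0.28 over 71 copies, 62 of them positive, which was 0.05 without the 3 arrays, and none passed an unadjusted p of 0.05. Mitochondrial respiration genes had a median of -0.02 over 77 copies, with none below that p.

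The L and S copies of a gene give a further view, although near-identical copies can share probes and are not independent. Among 768 pairs with both copies kept, the differences shared a sign in 505 (65.8%), and their Pearson correlation across pairs was 0.48. In 64 of the 768 pairs at least 1 copy was below an unadjusted limma p of 0.05. Over all single probe sets 3.97% were, and each pair has 2 copies that could be. In 55 of the 64 pairs the 2 copies had the same sign. These pairs were picked by the values described, so their counts are description. In 8 of the 64 pairs both copies were below that p, and all 8 were negative: calr, creld2, gadd45g, hspa5, marcksl1, mmp13l, plin2 and rdh10. Plin2, which coats lipid droplets, was at -1.80 (L) and -1.35 (S), and marcksl1, an actin-linked membrane protein, at -1.41 (L) and -1.25 (S). Both were singled out after their values were seen.

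How the named genes compared group by group follows from their choice and is given as description. Of the 15 lower ones picked by the rule, all 15 had stage 53 days that did not overlap (11.1% of all probe sets) and 0 had stage 57 days that did not overlap (0.835%). In 13 of the 15 the stages overlapped at 1 day and not at 5 days (13.5%). Of the 15 higher ones, 10 had stage 53 days that did not overlap, and in 4 the stages overlapped at 1 day and not at 5 days. Stages that did not overlap at all were seen at 1 day in 1 lower and 6 higher ones (9.19%), and at 5 days in 13 lower and 6 higher ones (18.5%). Without the 3 arrays all 30 kept their sign, and 28 had an unadjusted p below 0.05. Over all probe sets 769 (6.62%) had one, 372 higher (3.2%) and 397 lower (3.42%), and limma called none.

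**Figure D5:**
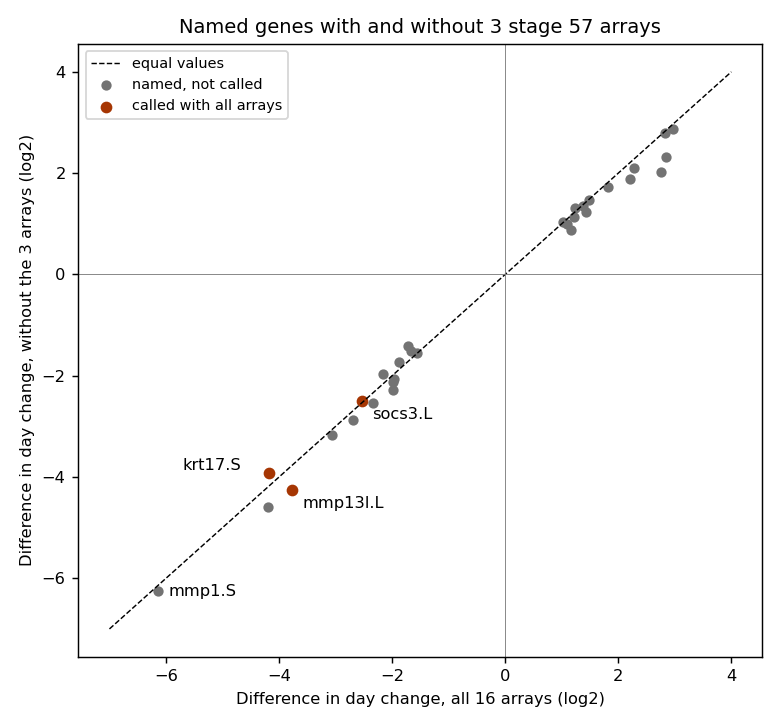
Difference in day change with all 16 arrays (x axis) and without the 3 stage 57 arrays of high actin ratio (y axis), in log2 units, for the 31 named probe sets, with the dashed line at equal values. All 31 points keep their sign, from -6.14 and -6.25 for mmp1.S to 2.97 and 2.87 for a krt70.S probe set.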

How the data were processed

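Per the submitters' processing notes, the intensity values that the authors deposited are MAS5 signals, 1 value a probe set on each of 16 arrays; the MAS5 version, scaling target and detection calls are not given in the sources used here. Total RNA was amplified with the Affymetrix 2-cycle kit, per the series' design text. The table held 15611 rows, of which 120 AFFX control rows were left out. The other 15491 probe sets had 1 gene symbol (9304), several (195) or none (5992) in the platform annotation, and 9227 of the single symbols matched RefSeq Xenopus_laevis_v10.1; only probe sets with 1 symbol were named.

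From the deposited intensities, log2 was taken with no offset, and probe sets with a mean above the 25th percentile were kept. A linear model with a mean for each group (12 residual degrees of freedom) was fitted by limma 3.58.1, run under R 4.3.3, and its variances were moderated along the intensity trend. P-values were adjusted by Benjamini-Hochberg over 11618 probe sets, and an unadjusted p is limma's own. The scripts were tested on simulated data. Depth does not apply to arrays, and 4 arrays a group limit the precision.

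The named genes are the called probe sets, filled to 15 in each direction by smallest p, among 4519 informative probe sets whose highest group mean lay above the median. Added to them were up to 4 members of each list by p, all members of a list below an unadjusted p of 0.05, which were added after values were seen, and a fixed set of limb, matrix and hormone genes. Lists were matched by symbol without its .L or .S ending or by a RefSeq synonym of that copy, with the brightest kept probe set standing for each gene copy. The members and lists were chosen with earlier results of these data known. Alternatives were quantile normalization, median centring, offsets before the log (31.3 and 101.8 signal units, the 10th and 25th percentiles), no filter and a filter at the 50th percentile, no trend, robust eBayes, array weights, the 3 arrays left out together, and each array left out in turn.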

Additional observations from a re-analysis of the deposited data

Results flagged for a closer look

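A direct test of the difference between stages in the change from 1 to 5 days picked out krt17.S (-4.18), mmp13l.L (-3.77) and socs3.L (-2.54). On the log2 scale each difference was negative, meaning that the day change was lower at stage 53. The sign describes that change and not the signal level on either day.

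Single arrays that stood apart from the other 3 of their group were looked for in 460 groups of 4 values, by the gap to the nearest array as a share of the group's range, against Dixon's 95% critical value. There were 32 such arrays (6.96% of groups), and chance gives about 1 in 20 groups. Log2 signals are given with the nearest other value in parentheses.

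Among lower-difference genes at stage 57 at 5 days, replicate 2 stood apart for gadd45g.S at 10.95 (10.45), mmp11.L at 8.73 (10.38), manf.S at 11.36 (9.71), myh9.L at 12.94 (14.05) and marcksl1.L at 9.96 (11.15). That array is 1 of the 3 of high actin ratio. Replicate 4 did so for mmp13l.S at 10.67 (11.97), replicate 1 for pdia4.L at 12.12 (11.54), and replicate 3 for c3.L at 8.96 (8.43) and ctnnb1.L at 11.97 (12.44). At stage 57 at 1 day, replicate 2 stood apart for hspa5.L at 12.38 (12.68), replicate 3 for pgk1 at 12.79 (13.38) and replicate 1 for acta1.S at 13.18 (10.43). At stage 53 at 5 days, replicate 3 did so for aif1l.L at 8.64 (9.23) and replicate 4 for hmox1.S at 10.43 (11.15) and tubb3.L at 6.95 (7.55).

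Among higher-difference genes at stage 57 at 5 days, replicate 2 stood apart for hoxd13.S at 7.82 (7.27), dlx2.S at 9.33 (8.11) and meis2.L at 7.88 (7.13). Replicate 3 did so for cdc6.S at 8.21 (7.77), lhx2.L at 2.56 (6.1) and myl3.S at 6.7 (7.46), and replicate 4 for hhip.L at 8.45 (8.27). At stage 53 at 5 days, replicate 1 stood apart for pole.L at 9.88 (9.35) and lhx2.L at 8.17 (9.58), and replicate 4 for fzd10.S at 8.65 (8.19) and the third krt70.S probe set at 10.47 (9.04). At stage 53 at 1 day, replicate 1 did so for mcm5.L at 8.89 (9.8) and msx1.L at 7.73 (9.15), and replicate 2 for msx2.L at 8.73 (7.83). At stage 57 at 1 day, replicate 3, also 1 of the 3 of high actin ratio, did so for smad2.L at 11.12 (9.67), foxi1.L at 7.78 (5.9) and myl3.S at 8.59 (6.68).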

How the results depend on the processing

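The difference in day change was called for 3 probe sets with all arrays, with quantile normalization, with centred medians and with robust eBayes, for 2 with no intensity trend, for 1 (krt17.S) with either offset, with no filter or with the stricter filter, for 11 with array weights, for 0 without the 3 stage 57 arrays, and for 0 to 2 with 1 array left out; all calls were lower. The stage 53 day change, with 14 calls, gave 25 with centred medians, 22 with the 10th percentile offset, 828 with array weights (391 higher, 437 lower), 371 without the 3 arrays (153 higher, 218 lower), and 5 to 92 with 1 array left out; the highest count was without replicate 3 of stage 57 at 1 day and the lowest without replicate 4 of stage 53 at 5 days. The stage 57 day change gave 0 to 1 with 1 array left out and 0 otherwise. For single genes, 1076 values under other settings kept direction and side of the threshold, 11 lost the call, 5 gained it and 7 turned sign; with 1 array left out these were 1724, 42, 0 and 28. The turns were msx2.L at -0.17 without the 3 arrays, hand2.S at -0.08 with centred medians, -0.16 with weights and -0.11 without the 3 arrays, thra.L at 0.00 and 0.07 with the offsets, and ldhb.S at -0.05 with centred medians. With 1 array left out, hand2.S ran from -0.46 to 0.47, hoxa11.S from -0.11 to 0.88, thra.L from -0.57 to 0.39, col1a1.S from -0.33 to 0.05, col2a1.S from -0.78 to 0.55, dynll1.L from -0.43 to 0.85 and ldhb.S from -0.09 to 0.17. The cause was not tested. No paired analysis was possible because the arrays carry running codes and no replicate number shared between groups. The median 95% interval of 1.1 to either side takes no account of the adjustment, and at the same standard error a call needed a larger difference. Mmp11.L at -3.07 and dynll1.S at 2.85 were not called (adjusted p = 0.609 for both by limma). Mmp13l.L at stage 53 at 5 days lay near the low end of the signal.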

Other observations

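Outside the groups described above, single genes of the nerve, thyroid and ionocyte lists had an unadjusted limma p below 0.05, and none was called. Tubb3.L, a neuronal tubulin, had a difference of -1.49 (SE 0.50), with a change of -1.25 at stage 53 and 0.24 at stage 57, and its stage 53 arrays at 5 days lay below all 12 others. The nerve and Schwann cell list as a whole had 6 of 12 copies positive. Crhbp.S, a binding protein of corticotropin-releasing hormone, was at -1.37 (SE 0.42), its 4 stage 53 arrays at 5 days also lying below all others. Among 13 copies of the thyroid hormone list it was the only one lower at that p beside the metalloproteinases mmp1.S, mmp11.L and mmp13l.S. The protease list also held those metalloproteinases, and 2.13% of all probe sets were lower. Like the protease list, the thyroid list leaves out the called mmp13l.L. Foxi1.L, a transcription factor of ionocytes in Xenopus skin, was at 1.74 (SE 0.77), but its stage 57 mean at 5 days, 4.64, lay below the 10th percentile of deposited values (4.97), and with offsets of 31.3 and 101.8 signal units it was at 1.06 and 0.64, with an unadjusted p of 0.0596 and 0.0893. The ionocyte list had a median of -0.01 over 10 copies with all arrays and 0.62 without the 3 stage 57 arrays. Smad2.L, a carrier of TGF-beta signals, was at 1.04, in a list whose median of 0.04 equalled that of all probe sets. Without the 3 arrays smad2.L was at 0.56 (unadjusted limma p of 0.182). Globin and other erythroid genes had medians of -0.72 at stage 53 and -0.63 at stage 57 and of 0.23 for the difference (0.53 without the 3 stage 57 arrays). Of 17 erythroid copies, 0 were higher at an unadjusted limma p below 0.05 with all arrays (1.84% of all probe sets were). Without the 3 arrays 4 were (3.2% of all).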
